A study of Rattus norvegicus with 16 samples.

Results

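The genes described here are 9 genes of the calcium channel, calcineurin and NFAT pathway: the TRPC channels Trpc1 and Trpc6, the calcineurin subunits Ppp3ca, Ppp3cb and Ppp3r1, the calcineurin regulator Rcan1 and the transcription factors Nfatc1, Nfatc3 and Nfatc4. They were chosen by symbol, and each matched 1 row of the 13222 genes of the expression table. Poly(A) RNA was sequenced from glomeruli, the filtering units of the kidney, sieved from 16 male Wistar rats of about 175 g on day 11. The control group held 4 rats labelled healthy. A PAN group of 4 rats received intravenous puromycin aminonucleoside (PAN), a podocyte toxin used to model nephrotic syndrome, and another 2 groups of 4 received PAN and daily pioglitazone or GQ-16 by gavage. The protocol text also lists a sham vehicle. Doses, and whether the control rats were injected or gavaged, are not given in the sources used here. Pioglitazone is a thiazolidinedione agonist of the nuclear receptor PPARgamma, and GQ-16 is a partial agonist of it. No label names a litter, a batch or a pairing, so the replicate numbers below only name the rats, and each rat is 1 library.

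TRPC6 is a calcium-permeable cation channel opened by diacylglycerol downstream of phospholipase C. In the glomerulus it is known from podocytes, where inherited gain-of-function forms cause focal segmental glomerulosclerosis, and also from mesangial and vascular smooth muscle cells. Calcium that enters binds calmodulin, which switches on calcineurin, a phosphatase with a catalytic subunit (encoded by Ppp3ca or Ppp3cb) and a calcium-binding regulatory subunit (Ppp3r1). Calcineurin dephosphorylates NFAT factors, which then enter the nucleus. Most of this signal runs through protein activity and location, which RNA levels do not measure. RCAN1 binds and inhibits calcineurin, and a short form of its RNA, made from an internal start site, is a known NFAT target. NFAT binds DNA with the core GGAAA.

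The RefSeq promoter windows of Rcan1 and Trpc6 are shown because the first holds the known NFAT-responsive start and the second belongs to the member whose RNA differed most between groups. Both run 5′ to 3′ on the gene's strand, from 250 bases before to 50 after the start, in build GRCr8. Capitals mark GGAAA or its reverse complement TTTCC, and no base of the Trpc6 window is in capitals because neither is found there.

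Rcan1, chr11:45118187-45118486, minus strand: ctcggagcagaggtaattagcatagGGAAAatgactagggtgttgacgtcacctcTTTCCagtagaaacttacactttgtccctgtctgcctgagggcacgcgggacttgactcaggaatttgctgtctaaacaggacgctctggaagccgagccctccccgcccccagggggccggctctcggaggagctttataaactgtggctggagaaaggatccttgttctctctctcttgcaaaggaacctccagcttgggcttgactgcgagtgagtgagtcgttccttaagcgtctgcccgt

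Trpc6, chr8:14043966-14044265, plus strand: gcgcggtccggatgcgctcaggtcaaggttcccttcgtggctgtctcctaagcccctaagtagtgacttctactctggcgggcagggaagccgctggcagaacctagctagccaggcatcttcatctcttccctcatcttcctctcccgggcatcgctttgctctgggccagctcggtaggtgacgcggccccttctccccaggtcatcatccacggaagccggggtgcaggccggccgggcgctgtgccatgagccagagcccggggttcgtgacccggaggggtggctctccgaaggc

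The start in the Rcan1 window lies 69829 bases inside the outer end of the annotated gene, so it is an internal start. It holds 2 matches to GGAAA, at -225 on the gene's strand and at -195 on the other strand. Windows were found for 5 of the 9 members. Ppp3cb and Ppp3r1 hold 1 match each, and Ppp3ca and Trpc6 hold 0. Of 33469 promoter windows of 300 bases, 62.7% hold at least 1 match and 28.5% at least 2. The read counts are per gene and do not separate the start sites of Rcan1.

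Libraries held 13351137 to 21977663 reads in the listed genes, and levels are given as CPM, reads scaled to a common library total. A count of 3 reads corresponds to 0.14 to 0.22 CPM. All 16 libraries carried podocyte RNA (summed CPM of 10 markers, 2770 to 15084). Reads of the 13 mitochondrial genes made up 13.7% to 39.0% of control libraries, 5.83% to 10.6% of PAN libraries, 8.61% to 19.0% with pioglitazone and 6.63% to 30.9% with GQ-16. Reads taken by one set of genes lower the CPM of all others, and the median gene was 0.28 higher on the log2 scale in PAN than in control rats. Most changes are therefore also given after median-ratio scaling, which sets library size by the median gene and brings that shift to -0.003. Of the PAN libraries, 3 of 4 carry library numbers of 25 or higher, against 0 of 4 control libraries and 1 of 4 in each drug group. What these numbers stand for is not stated.

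Of the channels, Trpc6 rose in PAN rats and Trpc1 showed no detectable change. Trpc6 was read at 3.08, 1.78, 1.93 and 2.37 CPM in the 4 control rats and at 10.3, 8.85, 5.33 and 7.29 CPM in the 4 PAN rats. The lowest PAN rat was above the highest control rat. Group means were 2.29 ± 0.59 CPM in control and 7.94 ± 2.13 CPM in PAN rats (SD, n = 4 each), a 3.47-fold ratio of means. These values rest on 30 to 48 reads per control library and 93 to 194 per PAN library. On the log2(CPM + 1) scale, which understates changes of genes this low, the difference was 1.43 (SE 0.23, 95% interval 0.94 to 1.91, limma adjusted p = 0.00116, higher in 4 of 4 PAN rats). With median-ratio scaling it was 1.20 (adjusted p = 0.00272), with a 2.87-fold ratio of means. In a bulk sample, more cells of a type and more RNA per cell cannot be told apart.

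Trpc6 was the only one of the 9 members past the threshold (adjusted p under 0.05) in this comparison, in which 22.3% of all genes passed, 21.7% upward. With median-ratio scaling the shares were 8.63% and 7.12%, and Trpc6 was again the only member called. Between-group differences took up 76.7% of the variance of Trpc6 over the 16 rats with median-ratio scaling, against 29.7% for the median gene. Trpc6 is the least read member. It reached the 2 CPM that every deposited gene reached in at least 8 libraries in 14 libraries, 12 of them from PAN-injected rats, while the other 8 members exceeded 10 CPM in every library.

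Trpc1, the more widely expressed channel subunit, was read at 12.2, 10.6, 10.3 and 11.4 CPM in control rats and at 12.2, 12.6, 11.9 and 10.4 CPM in PAN rats, which overlap. Its change was 0.08 (SE 0.11, 95% interval -0.16 to 0.31, adjusted p = 0.595), or -0.20 (adjusted p = 0.23) with median-ratio scaling. The ratio of Trpc6 to Trpc1 within a library does not depend on scaling. It was 0.252, 0.167, 0.188 and 0.209 in control rats and 0.844, 0.702, 0.446 and 0.697 in PAN rats. The groups did not overlap, and the difference in mean log2 ratio was 1.70 (exact permutation p = 0.0286, two-sided, the smallest that 70 assignments allow). Over the 36 ratio comparisons made, the smallest adjusted p that resulted was 0.343.

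**Figure D1:**
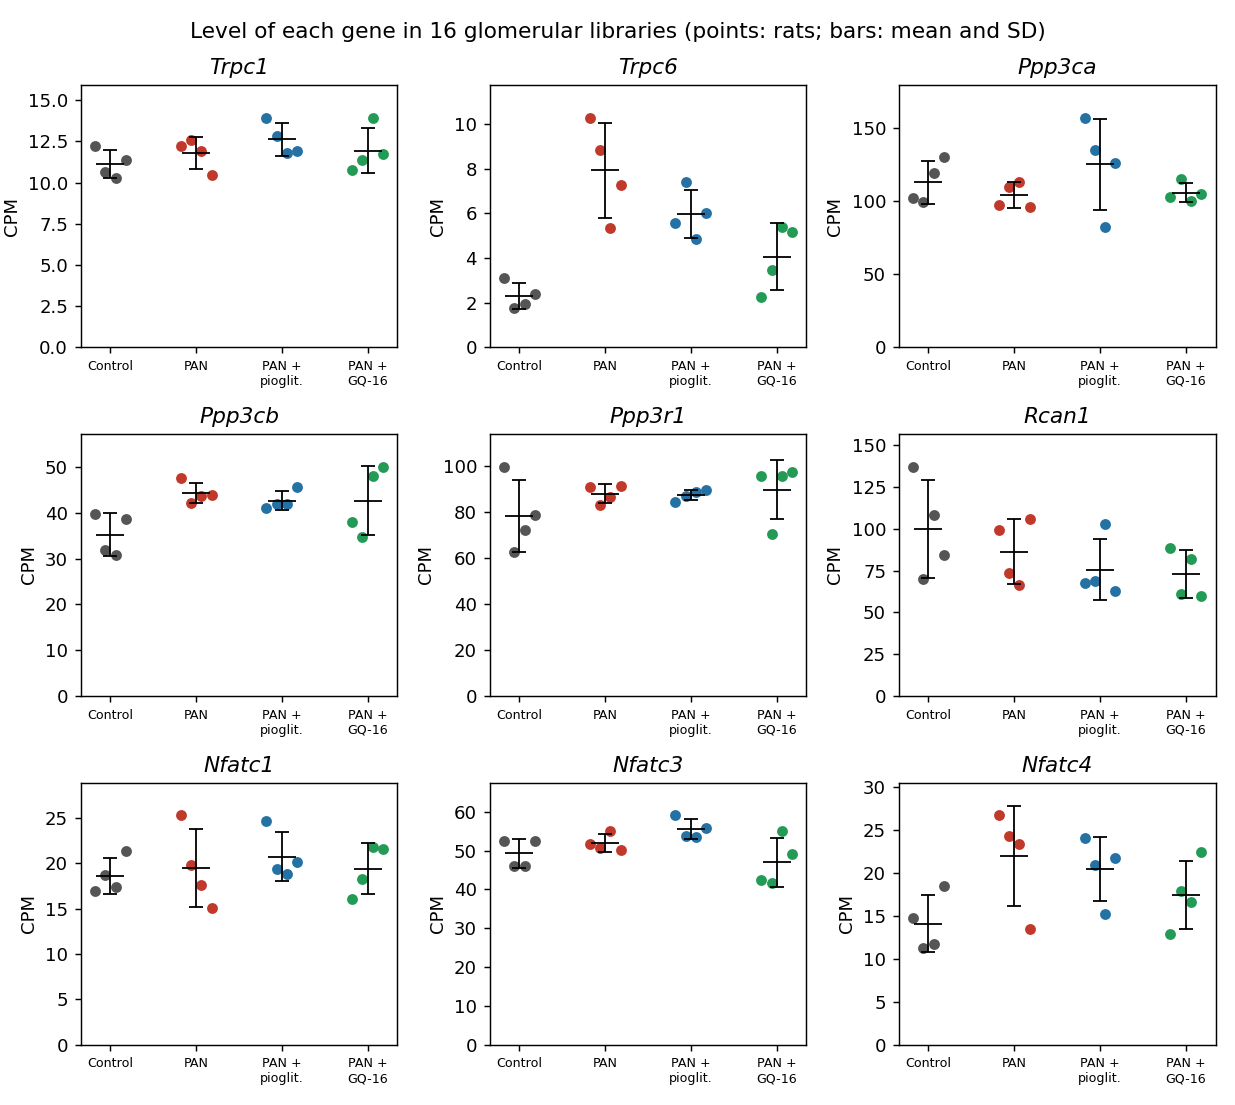
Level of each of the 9 genes in CPM (vertical axes, each from 0) in the 4 groups; points are rats and bars are the mean and SD of 4. The 4 PAN points of Trpc6 lie between 5.33 and 10.3 CPM, above all 4 control points, while Trpc1 spans 10.3 to 12.6 CPM in these 2 groups.

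Markers of 2 cell types that are known to express Trpc6 were compared between the same groups. The 10 podocyte markers summed to 2770 to 9566 CPM in control and 7611 to 10965 CPM in PAN rats, which overlap. Of these, 3 of 10 were called higher, where 21.7% of all genes were. The 8 mesangial and smooth muscle markers summed to 294 to 800 CPM in control and 1618 to 2705 CPM in PAN rats, and 7 of 8 were called higher, none lower. On the log2(CPM + 1) scale, which compresses Trpc6 more than the higher-read markers, Trpc6 relative to the mean of the podocyte markers was -5.82 ± 0.86 in control and -5.73 ± 0.29 in PAN rats (SD, n = 4), a difference of 0.09 (exact permutation p = 0.943). With a pseudocount of 0.1 the difference was 0.39 (exact permutation p = 0.514). Relative to the mesangial and smooth muscle markers it was -3.22 ± 0.43 in control and -3.96 ± 0.23 in PAN rats on the log2(CPM + 1) scale, with overlapping rats (lowest control -3.68, highest PAN -3.65) and no test made.

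With the podocyte score as a covariate the Trpc6 change was 1.13 (adjusted p = 0.019). With the mesangial and smooth muscle score as a covariate, a fit added after the data were seen, it was 0.50 (SE 0.33, adjusted p = 0.484), or 0.54 (adjusted p = 0.642) with median-ratio scaling. The summed levels of that list do not overlap between control and PAN rats, so the score and the group cannot be told apart well in these rats. With the 13 libraries under 30% mitochondrial reads, also chosen after the data were seen and leaving 2 control rats, the change was 1.24 (adjusted p = 0.0751). The summed markers of fibroblasts (3 of 6 measured, 1 called higher, 19.1 to 74.6 CPM in control and 107 to 2556 CPM in PAN rats) and of striated muscle (3 of 8 measured, 3 called higher, 4.78 to 25.4 against 369 to 582 CPM) were also higher in every PAN rat. Of all genes, 21.7% were called higher in this comparison. The part of the fibroblast and striated muscle markers in the Trpc6 result was not tested.

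**Figure D2:**
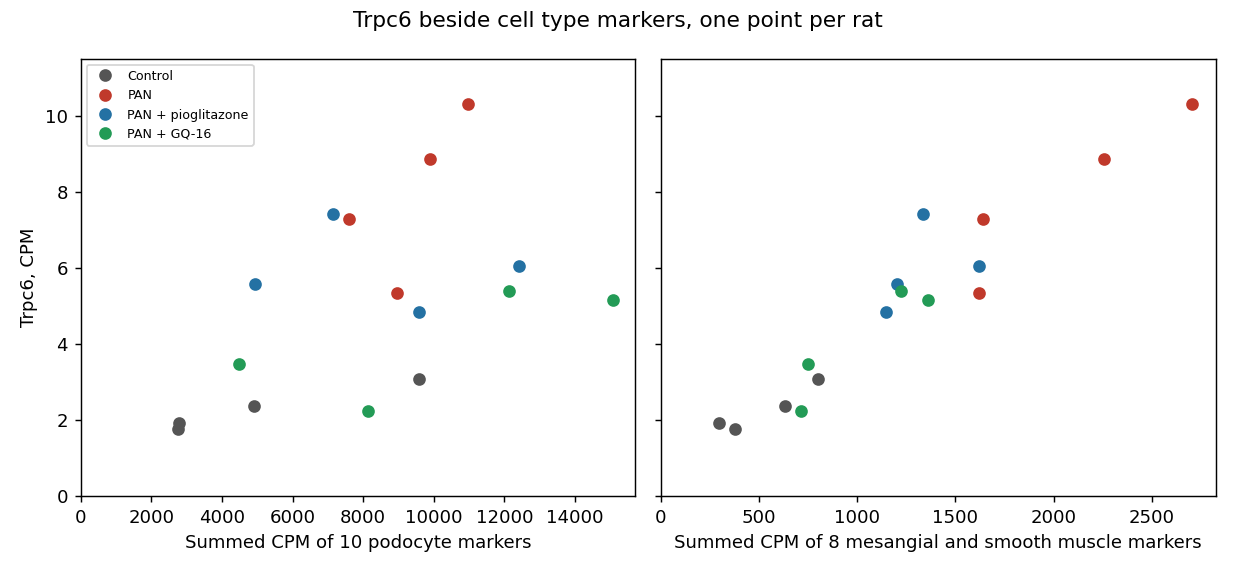
Trpc6 in CPM (vertical axes) against the summed CPM of 10 podocyte markers (left) and of 8 mesangial and smooth muscle markers (right), 1 point per rat, coloured by group. The control rats lie at the lower left of both panels except for 1 rat with podocyte markers at 9566 CPM, and the PAN rat with the highest Trpc6, at 10.3 CPM, also has the highest mesangial and smooth muscle sum, 2705 CPM.

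None of the calcineurin subunit genes was called in PAN rats. Ppp3cb, a catalytic subunit, was at 39.9, 31.9, 30.7 and 38.6 CPM in control and 47.5, 42.2, 43.6 and 43.9 CPM in PAN rats, which do not overlap. Across all genes, 23.3% had groups that did not overlap, and Ppp3cb and Trpc6 were the 2 of 9 members that did so. The Ppp3cb change was 0.33 (SE 0.13, adjusted p = 0.0656). With median-ratio scaling it was 0.03 (adjusted p = 0.765) and the groups overlapped; the shift of the median gene, 0.28 at deposited scaling, was nearly as large as the change of Ppp3cb. Ppp3ca, the other catalytic subunit, changed by -0.11 (adjusted p = 0.608; -0.41 with median-ratio scaling), with 99.5 to 130 CPM in control and 96.0 to 113 CPM in PAN rats. Ppp3r1, the regulatory subunit, changed by 0.18 (adjusted p = 0.296; -0.11 with median-ratio scaling), with 62.6 to 99.8 CPM in control and 83.0 to 91.4 CPM in PAN rats. The log2 ratio of Ppp3ca to Ppp3cb was 1.68 ± 0.25 in control and 1.23 ± 0.17 in PAN rats (SD, n = 4), a difference of -0.45 (exact permutation p = 0.0857) with overlapping groups.

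Rcan1, the calcineurin inhibitor, was at 137, 70.2, 109 and 84.5 CPM in control, 99.7, 73.8, 66.2 and 106 CPM in PAN, 67.7, 68.6, 103 and 63.0 CPM with pioglitazone and 88.5, 61.2, 81.9 and 60.1 CPM with GQ-16. All 4 groups overlap. Its change from control was -0.19 in PAN rats (SE 0.22, adjusted p = 0.505), -0.38 with pioglitazone (adjusted p = 0.243) and -0.43 with GQ-16 (adjusted p = 0.242). With median-ratio scaling these were -0.49, -0.60 and -0.60, again not called (adjusted p = 0.154, 0.127 and 0.114). The 95% interval of the PAN difference, -0.66 to 0.28 at deposited scaling, contains both no change and a fall of that size.

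Nfatc4 had the largest change among the NFAT members, and it did not pass the threshold. It was at 14.8, 11.3, 11.7 and 18.4 CPM in control and 26.7, 24.3, 23.3 and 13.4 CPM in PAN rats. In 3 of 4 PAN rats it lay above every control rat, and PAN replicate 4, the PAN rat with a low library number, lay within the control range. The change was 0.59 (SE 0.22, 95% interval 0.12 to 1.05, adjusted p = 0.0618), or 0.30 (adjusted p = 0.339) with median-ratio scaling. It would be called without PAN replicate 4 (0.80, adjusted p = 0.0145) or without control replicate 4 (0.72, adjusted p = 0.0334). Ppp3cb would be called without control replicate 1 (0.39, adjusted p = 0.0337).

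Nfatc3 was at 45.9 to 52.6 CPM in control and 50.1 to 55.2 CPM in PAN rats, a change of 0.08 (adjusted p = 0.58). With median-ratio scaling its sign turned (-0.22, adjusted p = 0.115), and on that scale the PAN rats, at 44.9 to 50.8, all lay below the controls, at 51.1 to 62.0, where 15.8% of all genes had groups that did not overlap. Nfatc1 was at 17.0 to 21.4 CPM in control and 15.1 to 25.3 CPM in PAN rats, a change of 0.04 (adjusted p = 0.834; -0.25 with median-ratio scaling). The log2 ratio of Nfatc4 to Nfatc3 was -1.83 ± 0.23 in control and -1.29 ± 0.42 in PAN rats, a difference of 0.54 (exact permutation p = 0.0857), and that of Nfatc1 to Nfatc3 differed by -0.03 (p = 0.80). In all, 3 of the 9 members (Trpc6, Ppp3cb and Nfatc4) had an unadjusted limma p under 0.05 in PAN against control, where 42.1% of all genes did.

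**Figure D3:**
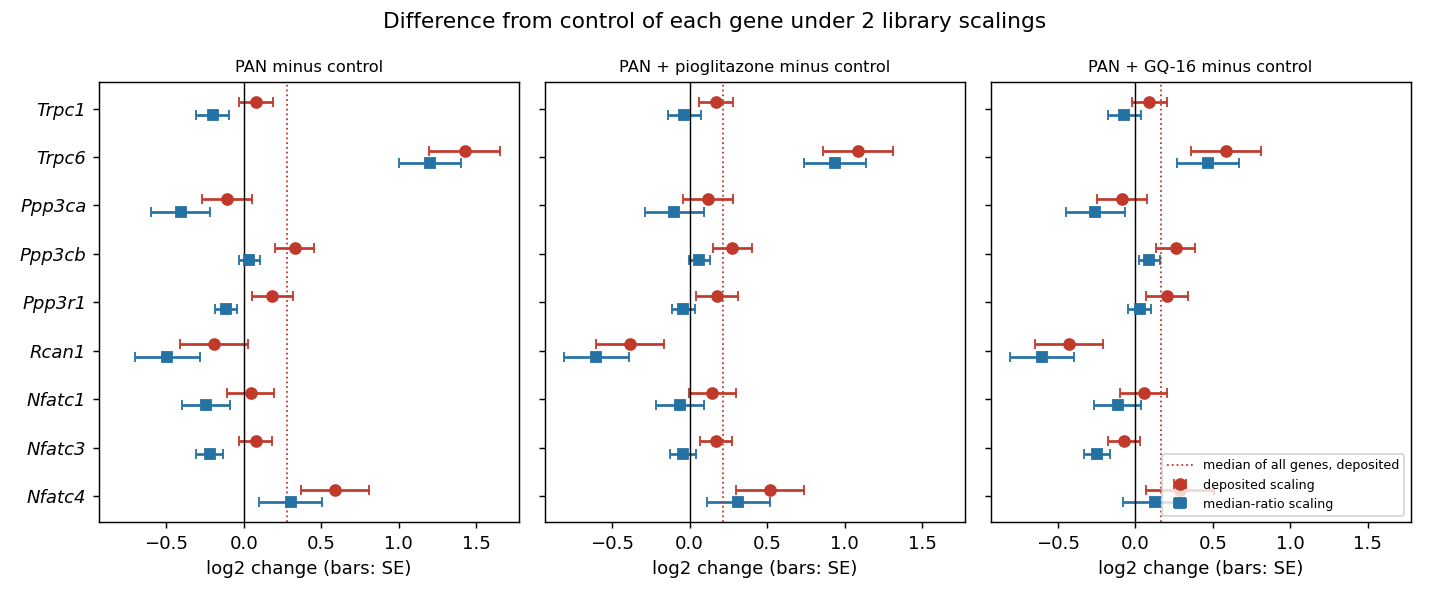
log2 change from control (horizontal axes) of each gene in the PAN, pioglitazone and GQ-16 groups at deposited scaling (circles) and median-ratio scaling (squares), with SE bars; the dotted line is the median of all genes at deposited scaling. Trpc6 stands to the right of 0 in all 3 panels, at 1.43, 1.09 and 0.59, while Trpc1, Ppp3r1, Nfatc1 and Nfatc3 lie close to 0 and lose about the dotted distance under median-ratio scaling.

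In the PAN rats given pioglitazone, Trpc6 was at 5.57, 7.43, 4.84 and 6.04 CPM (mean 5.97 ± 1.09, SD, n = 4), above every control rat. The change from control was 1.09 (SE 0.23, 95% interval 0.60 to 1.57, limma adjusted p = 0.0181), or 0.94 (adjusted p = 0.027) with median-ratio scaling. It was the only member of 9 called, where 4.98% of all genes were (2.84% with median-ratio scaling). The call was lost without control replicate 2 (1.01, adjusted p = 0.0813), control replicate 3 (1.03, adjusted p = 0.0759), pioglitazone replicate 2 (0.99, adjusted p = 0.0762) or pioglitazone replicate 4 (1.08, adjusted p = 0.0515). It was also lost with the podocyte score (0.85, adjusted p = 0.0767), the tubule score (0.76, adjusted p = 0.218) or the mesangial and smooth muscle score (0.48, adjusted p = 0.407) as a covariate. The mesangial and smooth muscle sum was 1145 to 1621 CPM in these rats. Trpc6, Ppp3cb and Nfatc3 were the 3 members with no overlap with control, against 14.1% of all genes. With median-ratio scaling only Trpc6 kept that separation, against 11.8% of all genes.

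In the PAN rats given GQ-16, Trpc6 was at 2.23, 3.48, 5.40 and 5.15 CPM (mean 4.07 ± 1.49, SD, n = 4). Replicate 1 lay within the control range and the other 3 lay above it. The change from control was 0.59 (SE 0.23, 95% interval 0.10 to 1.07, adjusted p = 0.153), or 0.47 (adjusted p = 0.172) with median-ratio scaling. No member was called, where 0.151% of all genes were (0.741% with median-ratio scaling). With median-ratio scaling the GQ-16 rats had Nfatc3 at 42.7 to 50.3, all below the controls (change -0.25, adjusted p = 0.111), where 11.8% of all genes had groups that did not overlap. At deposited scaling one member, Trpc6, had an unadjusted p under 0.05, as did 23.9% of all genes.

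No member differed between drug-treated and PAN-only rats past the threshold, in comparisons where 0% (pioglitazone) and 0.0151% (GQ-16) of all genes were called. Trpc6 was 0.34 lower on the log2 scale with pioglitazone than with PAN alone (difference -0.34, 95% interval -0.82 to 0.14, adjusted p = 0.916; -0.27, adjusted p = 0.78, with median-ratio scaling). With GQ-16 the difference from PAN alone was -0.84 (95% interval -1.32 to -0.36, unadjusted p = 0.00199, adjusted p = 0.403), or -0.73 (adjusted p = 0.424) with median-ratio scaling. The highest GQ-16 rat, at 5.40 CPM, was just above the lowest PAN rat, at 5.33 CPM, and the other 3 lay below every PAN rat. The ratio of Trpc6 to Trpc1 in the GQ-16 rats was 0.207, 0.307, 0.387 and 0.440, below all 4 PAN rats (difference in log2 ratio -1.02, exact permutation p = 0.0286, adjusted p = 0.343). The mesangial and smooth muscle sum was 713 to 1358 CPM with GQ-16, also below every PAN rat. With that score as a covariate, the fit added after the data were seen, the Trpc6 difference was -0.38 (adjusted p = 0.394), and the score and the group cannot be told apart well here either.

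Between the 2 drug groups, Trpc6 was lower with GQ-16 than with pioglitazone by a difference of -0.50 (95% interval -0.98 to -0.02, unadjusted p = 0.0433, adjusted p = 0.819; -0.47, adjusted p = 0.681, with median-ratio scaling), with overlapping rats. Nfatc3 was the other member with an unadjusted p under 0.05 here (difference -0.24, adjusted p = 0.783; -0.20, adjusted p = 0.681, with median-ratio scaling), and 0% of all genes were called. The doses of the 2 compounds are not given in the labels, so their effects cannot be matched by dose. Counts at an unadjusted p under 0.05 were 0 of 9 members for pioglitazone against PAN, 1 for GQ-16 against PAN and 2 for GQ-16 against pioglitazone, where 3.74%, 8.27% and 5.94% of all genes had such a p, and limma's voom on recovered reads also called 0 members in each.

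The groups therefore ran in the order PAN, pioglitazone, GQ-16 and control by mean Trpc6. Neighbours in that order overlapped, and no difference between neighbours passed the threshold. Among the 11 libraries with numbers of 15 or lower, Trpc6 was at 1.78 to 3.08 CPM in 4 control rats, 7.29 CPM in 1 PAN rat, 4.84 to 7.43 CPM in 3 pioglitazone rats and 2.23 to 5.40 CPM in 3 GQ-16 rats. With library number of 25 or higher as a covariate, the PAN change from control was 1.28 (adjusted p = 0.0173).

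Of 60 further genes of the pathway, 48 were analysed, and 12 of these (25%) rose in PAN rats, against 21.7% of all genes. No gene of the list fell. The median change of the list was 0.31, against 0.28 for all genes. With median-ratio scaling 5 of 48 (10.4%) rose, against 7.12% of all genes, and the medians were 0.01 and -0.003. The count moved to 21 (43.8%) without control replicate 1 and to 3 (6.25%) without control replicate 3, where 36.8% and 6.21% of all genes rose, so the shares of the list and of all genes moved together. It was 1 with the podocyte score, 1 with library number and 0 with the mesangial and smooth muscle score as a covariate, where 3.62%, 2.88% and 0.00756% of all genes rose.

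Upstream of the channels, the angiotensin II receptor gene Agtr1a, whose product drives phospholipase C, was at 36.9 to 72.9 CPM in control and 76.0 to 105 CPM in PAN rats (log2 change 0.91, SE 0.20, adjusted p = 0.00673; 0.61, adjusted p = 0.0101, with median-ratio scaling). Its near-identical copy Agtr1b was called as well (1.14, adjusted p = 0.0192; 0.85, adjusted p = 0.0524, with median-ratio scaling), but reads of the copies may be split between them, so the values of both Agtr1a and Agtr1b are uncertain. Phospholipase genes Plcb2 (0.73, adjusted p = 0.0456) and Plcb3 (0.38, adjusted p = 0.0458) rose at deposited scaling and were not called with median-ratio scaling. The call of Plcb2 held in 2 of 8 fits that left out a rat, and without PAN replicate 1 its change was 0.435 (adjusted p = 0.142). Plcb2 reached 2 CPM in 10 libraries, 2 control and 8 PAN-injected, close to the 8 libraries that every deposited gene reached. The part of that filter in its change was not tested. Plce1, a phospholipase mutated in inherited nephrotic syndrome, had a larger change that varied more (1.52, SE 0.57, adjusted p = 0.0633; 1.22, adjusted p = 0.151, with median-ratio scaling).

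The channel gene Trpc4 reached 2 CPM in 10 PAN-injected and 0 control libraries, so it is in the table only through groups where it is high, and a difference from control came with that filter. It was at 0.68 to 1.81 CPM in control and 2.62 to 5.73 CPM in PAN rats, values given as a description, although it is among the 12 genes counted above. Of 5 genes of store-operated calcium entry, which refills emptied calcium stores, the store sensor Stim1 (0.93, adjusted p = 0.0341) and the pore gene Orai2 (1.17, adjusted p = 0.0366) rose at deposited scaling, and neither was called with median-ratio scaling (adjusted p = 0.0822 and 0.0855). With the podocyte score as a covariate Stim1 changed by 0.189 (adjusted p = 0.539) and Orai2 by 0.17 (adjusted p = 0.538). With library number as a covariate the changes were 0.478 (adjusted p = 0.424) and 0.661 (adjusted p = 0.413).

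Rcan2, a relative of Rcan1 that also inhibits calcineurin, was at 42.1 to 83.4 CPM in control and 88.4 to 151 CPM in PAN rats (0.92, SE 0.22, adjusted p = 0.0125; 0.62, adjusted p = 0.0787, with median-ratio scaling). Cabin1, another calcineurin-binding inhibitor, changed by 0.33 (adjusted p = 0.0332) and by 0.04 with median-ratio scaling. Of 8 NFAT kinase genes 0 were called, where 22.3% of all genes were. Nfat5, the calcineurin-independent family member, was at a difference of 0.27 (adjusted p = 0.24; -0.03, adjusted p = 0.884, with median-ratio scaling).

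Ptgs2, which encodes cyclooxygenase-2 and is a known NFAT target, was at 5.15 to 8.90 CPM in control and 14.01 to 24.0 CPM in PAN rats (1.21, SE 0.21, adjusted p = 0.00185; 0.95, adjusted p = 0.00706, with median-ratio scaling). The other 2 analysed genes of the target list were not called. Actn4, a podocyte actin crosslinker, rose, with a range of 680 to 1581 CPM in control and of 1881 to 2286 CPM in PAN rats (1.12, adjusted p = 0.0222; 0.82, adjusted p = 0.0409, with median-ratio scaling). It was not called with the podocyte score (0.357, adjusted p = 0.209) or library number (0.73, adjusted p = 0.3) as a covariate. Synpo, the podocyte actin regulator that calcineurin dephosphorylates, spanned 93.4 to 745 CPM in control and 494 to 659 CPM in PAN rats (1.56, SE 0.62, adjusted p = 0.0736; 1.26, adjusted p = 0.171, with median-ratio scaling).

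When 1 rat of either group was left out, the PAN calls of Agtr1a and Ptgs2 held in all 8 fits and that of Rcan2 in 7, being lost without control replicate 3. The call of Agtr1b held in 5 and that of Actn4 in 4. Those of Stim1, Orai2, Plcb3 and Cabin1 held in 3 and were lost without control replicate 2 or 3 or PAN replicate 1, 2 or 3. With the podocyte score as a covariate the calls of Agtr1a (0.486, adjusted p = 0.0885) and Rcan2 (0.689, adjusted p = 0.18) were lost. Library number as a covariate also removed both (0.794, adjusted p = 0.103, and 0.931, adjusted p = 0.0999). With only libraries under 30% mitochondrial reads, Agtr1a (0.531, adjusted p = 0.21), Rcan2 (0.594, adjusted p = 0.297) and Ptgs2 (0.927, adjusted p = 0.0949) were not called.

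**Figure D4:**
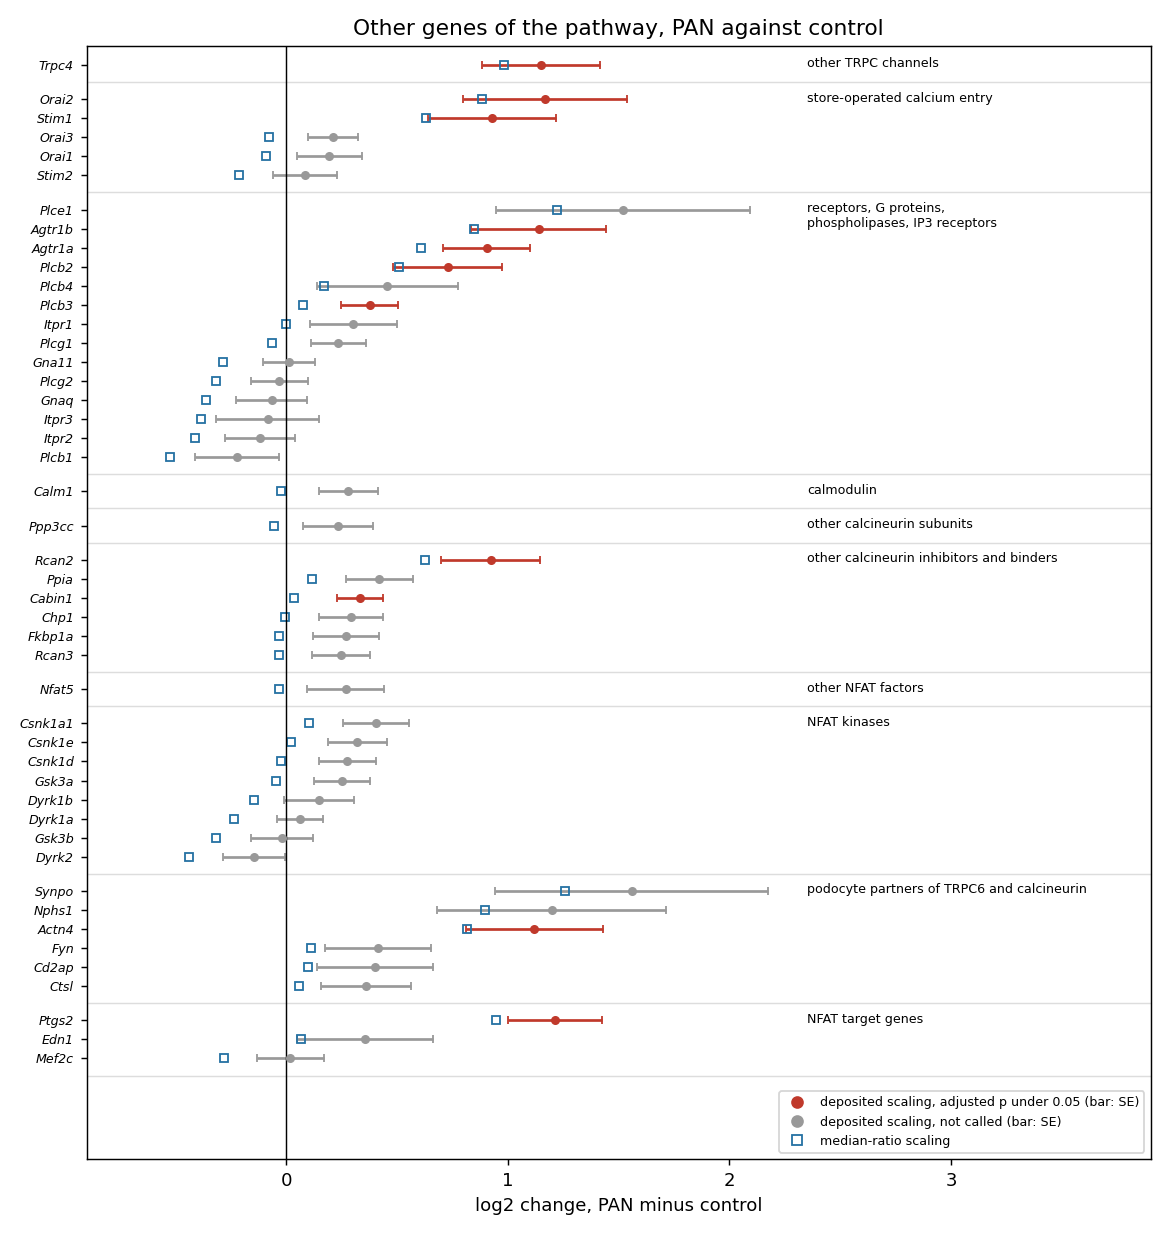
log2 change in PAN against control rats (horizontal axis) of the pathway genes reported here, by list; filled circles with SE bars are deposited scaling (red where the adjusted p is under 0.05) and open squares are median-ratio scaling. Agtr1a, Actn4 and Ptgs2 have changes of 0.61 to 0.95 under median-ratio scaling, and none of the 8 NFAT kinases is red.

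With pioglitazone, 5 of the 48 genes rose against control, where 4.7% of all genes did: Ptgs2 (1.24, adjusted p = 0.00877), Rcan2 (1.13, adjusted p = 0.015), Trpc4, which is in the table only through the PAN-injected groups, Agtr1a (0.72, adjusted p = 0.0452) and Agtr1b (1.10, adjusted p = 0.0477). Ptgs2, Rcan2 and Agtr1a were called with median-ratio scaling too, and Agtr1b was not. Leaving out 1 rat moved this count between 1 (without control replicate 2, where 0.333% of all genes rose) and 12 (without control replicate 1, where 12.2% did). The call of Ptgs2 held in all 8 of these fits, that of Rcan2 in 5 and of Agtr1a and Agtr1b in 2 each. With GQ-16 the count was 0, where 0.151% of all genes were called, and without control replicate 1 it was 14, of which 12 rose and 2 fell, where 11.9% of all genes were called. No gene of the list was called between the drug groups and PAN alone. These comparisons share their control or PAN rats.

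The 3 genes whose levels ran most like Trpc6 over the 16 rats, with median-ratio scaling, were Col8a1 (Pearson r 0.972), a collagen of vessel walls, S1pr2 (0.964), a sphingosine-1-phosphate receptor, and Ext1 (0.957), a heparan sulfate polymerase. After group means were removed the values were 0.892, 0.917 and 0.862. For Nfatc4 they were Camk2g (0.959), a calcium/calmodulin-dependent kinase, Pisd (0.934) and Rras (0.924). For Rcan1 they were Ripk4 (0.933), Basp1 (0.915) and Bid (0.912), and for Ppp3ca Csgalnact1 (0.973), Elf1 (0.957) and Laptm4b (0.956). Nearest were Depdc5 to Trpc1 (0.905), Gpbp1 to Ppp3cb (0.83), Stx7 to Ppp3r1 (0.846), Bcor to Nfatc1 (0.920) and Ddx6 to Nfatc3 (0.962). These are the highest of all genes in the table and share the libraries' cell makeup and depth.

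Among the members, Rcan1 and Nfatc4 ran opposite to each other (Pearson r -0.685 over 16 rats, -0.691 after group means were removed), while Trpc1 ran with Nfatc3 (0.773 and 0.842). Trpc6 and Nfatc4 had r 0.546, and 0.392 after group means were removed. The values are descriptions over rats of mixed groups and share the same library scaling.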

How the data were processed

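RNA was measured in glomeruli of 16 rats, 4 per group. Per the submitters' processing notes, reads were aligned with HISAT2, counted with featureCounts of Subread and handled with limma, on build Rnor_6.0; versions and filters are not given in the sources used here. The authors deposited log2 CPM values of 13222 genes. Here 0.5 read was assumed to have been added per gene and 1 to each library total. Undoing this gave whole reads for 100% of values (tolerance 0.05 read). Totals cover listed genes only, 13351137 to 21977663 reads. The kit keeps strand, but how strand was used in counting is not given in the sources used here.

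Tests between groups were run on log2(CPM + 1) in R 4.3.3 with the limma package (3.58.1), using 1 model of 4 group means, a variance trend and Benjamini-Hochberg adjustment over all 13222 genes, called at adjusted p under 0.05. Where nothing says that rats were handled independently, p-values measure only the spread between these libraries. Same-group libraries differed by a chi-square of 13.3 to 297 per gene, so none was a repeat deposit. Ratios were tested by exact permutation of rats (Python 3.11.15). On simulated PAN and control data of 13222 genes, 75% of 2-fold and 95% of 4-fold changes, set in genes drawn at random, were recovered.

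The members, the pathway list and the 9 marker lists were chosen with earlier results of these data known. Genes named from the pathway list are those called against control, plus Plce1, Synpo and Nfat5 whatever their values; 2 genes of the lists are not reported here. The likeness lists take the highest Pearson r. Nfatc2 was not analysed here, nor was Calm2, whose symbol has 2 rows. Alternatives were median-ratio and quantile scaling, voom on recovered reads, a pseudocount of 0.1, a mean of at least 10 CPM, no variance trend, only the groups compared, marker scores or library number as covariates, and leaving out each rat. Promoter sequences are from RefSeq (GRCr8), and no coordinates of the deposited build were used.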

Additional observations from a re-analysis of the deposited data

Results flagged for a closer look

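Among 36 combinations of a member and a group, 1 rat stood apart from the other 3 of its group, where about 1.8 are expected by chance. Ppp3r1 in GQ-16 replicate 2 was at 70.4 CPM, or 6.16 on the log2(CPM + 1) scale, against 6.59 to 6.62 in the other 3 rats. The gap made up 0.949 of the range of the group, above the critical value of Dixon's test for 4 samples. Mitochondrial genes took 30.9% of the reads of this library, the most in its group, and with median-ratio scaling the rat was at 82.1 against 87.4 to 96.3 in the others. The part of the mitochondrial share in this value was not tested.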

How the results depend on the processing

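The PAN change of Trpc6 against control stayed positive in every alternative that could test it and was called in 11 of 13 that kept all rats (0.50 to 1.74) and in all 8 that left out 1 rat (1.30 to 1.58). It was not called with the mesangial and smooth muscle score as a covariate (0.495, and 0.536 with median-ratio scaling) or with only the libraries under 30% mitochondrial reads (1.24), where 2 control rats remain. A mean of at least 10 CPM removes Trpc6, so that 0 members were called in PAN and 0 with pioglitazone. The pioglitazone call was kept in 7 of 13 alternatives and in 4 of 8 that left out a rat. The count was 0 under voom, under the podocyte (alone or with median-ratio scaling), tubule and mesangial scores and under the mitochondrial limit. When 1 rat was left out, 1 to 2 members were called in PAN and 0 to 1 with pioglitazone, where 6.34% to 37.5% and 0.363% to 12.6% of all genes were. The count of 2 came without control replicate 1, control replicate 4 or PAN replicate 4, where 37.5%, 28.9% and 24.4% of all genes were called. Where a call was lost, the cause was not tested.

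Pathway genes called in PAN against control numbered 12, and 5 under median-ratio, quantile and voom fits, 7 with the tubule score, 1 with the podocyte score (with and without median-ratio scaling), 1 with library number and 0 with it and median-ratio scaling, 0 with the mesangial score and 0 under the mitochondrial limit. Of all genes 22.3% were called in the main fit, 8.63%, 8.59% and 7.92% in the median-ratio, quantile and voom fits and 9.54% with the tubule score. The share was 4.12% with the podocyte score (4.21% with median-ratio scaling) and 2.97% with library number (2.88%). It was 0.0908% with the mesangial score and 0.424% under the mitochondrial limit. With pioglitazone the count of 5 became 3 (quantile, only the groups compared, library number), where 2.9%, 3.6% and 3.74% of all genes were called. It became 2 (voom, a mean of at least 10 CPM, library number with median-ratio scaling), where 1.89%, 3.97% and 3.02% were. It was 1 (podocyte score, both scalings), where 1.5% and 2.09% were, and 0 (tubule and mesangial scores, mitochondrial limit), where 0.0681%, 0% and 0% were. For GQ-16 against PAN it was 8 with the mesangial score (3.96% of all genes were called) and 3 with median-ratio scaling added (1.48%); the summed levels of those markers do not overlap between these groups. Leaving out 1 rat gave 3 to 21 in PAN, 1 to 12 with pioglitazone and 0 to 14 with GQ-16. In those fits 6.34% to 37.5%, 0.363% to 12.6% and 0% to 11.9% of all genes were called.

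Signs turned for changes that were not called. Under median-ratio, quantile and voom fits the PAN changes were -0.202, -0.263 and -0.211 for Trpc1, -0.115, -0.104 and -0.116 for Ppp3r1, -0.245, -0.279 and -0.241 for Nfatc1, -0.222, -0.227 and -0.226 for Nfatc3 and -0.033, -0.047 and -0.039 for Nfat5, and the pioglitazone change of Nfatc3 was -0.045, -0.042 and -0.047. With library number as a covariate Rcan1 was 0.074, Nfatc1 -0.105 and Nfat5 -0.036, and with median-ratio scaling added Trpc1 was -0.136, Ppp3r1 -0.057, Nfatc1 -0.303, Nfatc3 -0.172 (-0.028 with pioglitazone) and Nfat5 -0.244. With the tubule score Rcan1 was 0.091 (0.056 with pioglitazone), Nfatc1 -0.203 and Nfatc4 -0.037 with pioglitazone and -0.017 with GQ-16. With the podocyte score Ppp3ca was 0.030, Ppp3r1 -0.082, Nfatc3 -0.033, Nfat5 -0.010 and Plce1 -0.053, and with median-ratio scaling added Trpc1 was -0.058, Ppp3r1 -0.146, Nfatc1 -0.048, Nfatc3 -0.105, Nfat5 -0.068 and Plce1 -0.045. Under the mitochondrial limit Trpc1 was -0.002, Ppp3r1 -0.012 and Nfatc3 -0.019.

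With the mesangial and smooth muscle score, also added after the data were seen, the PAN change was -0.152 for Trpc1, 0.041 for Ppp3ca, -0.26 for Ppp3cb (-0.107 with pioglitazone), -0.33 for Ppp3r1, -0.309 for Nfatc1, -0.223 for Nfatc3 (-0.023 with pioglitazone) and -0.122 for Nfatc4 (-0.071 with GQ-16). Genes called without the score turned as well: Cabin1 -0.007, Agtr1a -0.088, Stim1 -0.759, Actn4 -0.595, Agtr1b -0.306 and Orai2 -0.966. Synpo was -1.975, Plce1 -1.594 and Nfat5 -0.504. With median-ratio scaling added the values were 0.276 for Ppp3ca, -0.088 for Ppp3cb (-0.016 with pioglitazone), -0.107 for Ppp3r1, -0.178 for Nfatc1, -0.023 for Nfatc3, -0.021 for Nfatc4 (-0.035 with GQ-16), -0.65 for Stim1, -0.488 for Actn4, -0.203 for Agtr1b, -0.871 for Orai2, -1.953 for Synpo, -1.499 for Plce1 and -0.354 for Nfat5.

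Medians in place of means gave 0.045 for the log2 ratio of Rcan1 to Ppp3ca, and a median over the podocyte markers gave -0.069 for Trpc6 relative to them in PAN against control and 0.161 in pioglitazone against PAN. Leaving out 1 rat moved Nfatc1 from -0.084 to 0.151, Nfatc1 to Nfatc3 from -0.167 to 0.064, Rcan1 to Ppp3ca from -0.232 to 0.126 and Trpc6 relative to podocyte markers from -0.293 to 0.324 (PAN against control), -0.347 to 0.271 (pioglitazone against control) and -0.348 to 0.169 (pioglitazone against PAN). No paired analysis was possible because the labels give no replicate numbers and the numbers used here only name rats. Each group held 4 rats, and each control library held 30 to 48 Trpc6 reads. SEs were 0.104 to 0.221 for the other members at deposited scaling. In the simulation 75% of 2-fold changes were recovered, but in genes drawn at random, with all others unchanged. Recovery for these members was not simulated, nor were smaller changes.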

Other observations

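Of the marker lists not described above, none of the 6 endothelial, 4 parietal epithelial or 6 proximal tubule markers measured was called in PAN against control rats. In that comparison 22.3% of all genes were called, nearly all of them upward (21.7% of all genes). Of 7 distal nephron and collecting duct markers 3 were called lower, with summed levels of 934 to 1615 CPM in control and 503 to 1060 CPM in PAN rats. Of 6 leukocyte markers 2 were called higher, against 21.7% of all genes, with 108 to 133 CPM in control and 120 to 329 CPM in PAN rats. Fibroblast markers were highest in PAN replicate 1, at 2556 CPM, the rat that also had the highest Trpc6. Striated muscle markers were at 83.9 to 486 CPM with pioglitazone and 71.8 to 504 CPM with GQ-16.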
